A study of Mus musculus with 6 samples.

Results

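Expression of 7 genes of mouse chromosome 14, the chromosome that carries Nr1d2, is described here in the suprachiasmatic nucleus (SCN), the hypothalamic seat of the central circadian clock. They are Ccnb1ip1, Myh6, Opn4, Fam107a, Plac9a, Plac9b and 4930452B06Rik, and they are 7 of 17645 genes listed in at least 1 library and 7 of 640 listed on that chromosome. They were chosen by their expected counts and FPKM in these same libraries: earlier results had called them changed between the r1r2V and V groups, outside a multi-copy gene family near the chromosome's start. Their differences between the groups are therefore given as descriptions, with no test. The 3 r1r2V libraries (replicates 1, 4 and 5) were read as the group in which Nr1d1 and Nr1d2, the genes of the clock repressors REV-ERBα and REV-ERBβ, are knocked out in GABAergic neurons. The 3 V libraries (replicates 2, 3 and 4) were read as its control. The labels spell out neither title, and the sources used here do not give the driver of the deletion, the exons removed, the age of the mice or any allele that both groups carry. Both groups were female C57BL/6 mice killed in the dark between zeitgeber time (hours after lights on) 12 and 14, and each library pooled RNA from 2 SCN cut from frozen sections. Nothing says that pools came from separate litters or animals, so p-values cover only the spread between these 6 libraries, which may be technical.

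Nr1d2 and Nr1d1 were not lower in the libraries titled r1r2V. Nr1d2 had 229, 275 and 222 CPM (expected counts divided by the scaled library size) in r1r2V libraries, against 177, 179 and 168 CPM in V libraries. Nr1d1 had 196, 157 and 147 CPM in r1r2V libraries, against 56.7, 62.5 and 57.0 CPM in V libraries (log2 fold change 1.5, adjusted p = 8.24e-05 by edgeR's quasi-likelihood test). Gene totals do not show which exons the reads cover, so they do not check a deletion of single exons, and every direction given for r1r2V against V is for the libraries so titled.

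Genes that lie on one chromosome are inherited together, and the closer they lie the more rarely meiotic crossing over parts them. Alleles near an engineered gene therefore tend to travel with it when a mouse line is bred, and this is the reason to look at a targeted gene's chromosome separately from the rest of the genome. Nr1d2 starts at 18204056 on chromosome 14 (GRCm38, the assembly that mm10 names), and Nr1d1 lies on chromosome 11. The 7 genes are known for different functions. Ccnb1ip1 encodes HEI10, a ubiquitin ligase of meiotic crossover sites, Myh6 the alpha heavy chain of cardiac myosin, and Opn4 melanopsin, the photopigment of the retinal ganglion cells that project to the SCN. Fam107a encodes an actin-binding protein that stress and glucocorticoids induce in brain. Plac9a and Plac9b are copies of a gene for a small secreted protein, and the role of 4930452B06Rik, named Cfap20dc in newer annotation, is not stated here.

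All 7 genes lie on the minus strand, and they flank Nr1d2 on both sides. Distances are between the lower coordinates of genes, here called starts. Fam107a (gene 268709, 8296270 to 8317607) and 4930452B06Rik (gene 74430, 8431171 to 8666336) start 9.91 and 9.77 Mb before it. Plac9a (gene 211623, 25888403 to 25902893) and Plac9b (gene 100039246, 26167316 to 26182351) start 7.68 and 7.96 Mb past it. Opn4 (gene 30044, 34590618 to 34600142) starts 16.4 Mb past it, Ccnb1ip1 (gene 239083, 50789249 to 50795728) 32.6 Mb past it, and Myh6 (gene 17888, 54941921 to 54968017) 36.7 Mb past it. Per the authors' files the values are gene totals over RefSeq mRNAs, and strand use in counting is not given. Exons of antisense genes overlap those of Myh6 by 114 bases and those of Opn4 by 130 bases in the GENCODE annotation, so reads there cannot be told apart by gene. Rpph1, the RNA of ribonuclease P, overlaps the longer GENCODE model of Ccnb1ip1 by 233 bases, but starts 11721 bases past the end of the RefSeq gene.

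The sequence before the transcription start was read for the genes on which the results turn. Each window holds 300 bases of GRCm38.p6 from RefSeq, from 250 before to 50 after a start, on the minus strand. AGGTCA, the core letters of the elements that REV-ERB proteins bind, was searched on both strands. It occurred in 16.25% of 32544 such windows of the genome, and among the 7 genes only in that of Ccnb1ip1, which held it at 2 places. The window of Nr1d2 held it at 1 place. Windows of Ccnb1ip1 (chr14:50795679-50795978) and Nr1d2 (chr14:18239057-18239356) follow, with the motif on either strand in capitals.
Ccnb1ip1: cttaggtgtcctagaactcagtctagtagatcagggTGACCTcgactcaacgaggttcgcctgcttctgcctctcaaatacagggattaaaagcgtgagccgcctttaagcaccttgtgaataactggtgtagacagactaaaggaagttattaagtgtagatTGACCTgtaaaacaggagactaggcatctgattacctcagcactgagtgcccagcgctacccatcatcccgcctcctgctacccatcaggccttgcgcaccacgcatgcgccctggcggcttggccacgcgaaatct
Nr1d2: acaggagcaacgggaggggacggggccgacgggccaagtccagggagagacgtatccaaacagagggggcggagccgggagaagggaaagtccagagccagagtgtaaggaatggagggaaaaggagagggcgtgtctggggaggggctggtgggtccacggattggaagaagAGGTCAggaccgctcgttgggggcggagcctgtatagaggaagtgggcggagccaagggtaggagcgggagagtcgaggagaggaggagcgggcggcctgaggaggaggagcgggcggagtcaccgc
CACGTG, the letters of the E-box that clock activators bind, was in 7.17% of windows and in none of the 7 genes'. These matches are letters in a window, not sites shown to be bound.

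Plac9a and Plac9b are shown together because reads may fit both copies. The windows of Plac9a (chr14:25902844-25903143) and Plac9b (chr14:26182302-26182601) share an identical stretch of 222 bases, which begins at base 1 of the Plac9a window and at base 79 of the Plac9b window. The stretch runs to the last base of the Plac9b window, so the windows are identical where they overlap and are only offset. Capitals mark what lies outside the shared stretch. These are the window ends that do not overlap, not bases found to differ between the copies. That reads may fit both copies rests on the transcripts, given after the windows.
Plac9a: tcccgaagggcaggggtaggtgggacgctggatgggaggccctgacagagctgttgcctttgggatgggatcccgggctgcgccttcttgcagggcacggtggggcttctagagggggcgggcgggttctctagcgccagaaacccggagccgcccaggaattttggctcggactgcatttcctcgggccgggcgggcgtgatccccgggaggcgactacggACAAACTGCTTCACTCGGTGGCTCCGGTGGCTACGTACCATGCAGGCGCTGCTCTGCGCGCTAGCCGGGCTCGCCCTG
Plac9b: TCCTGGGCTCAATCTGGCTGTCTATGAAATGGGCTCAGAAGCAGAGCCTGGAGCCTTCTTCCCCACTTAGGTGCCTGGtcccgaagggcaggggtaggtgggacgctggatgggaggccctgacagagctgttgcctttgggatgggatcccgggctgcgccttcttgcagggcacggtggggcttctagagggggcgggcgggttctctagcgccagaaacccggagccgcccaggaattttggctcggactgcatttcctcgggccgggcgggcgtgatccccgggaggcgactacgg
A GENCODE transcript of Plac9a matched 1 of Plac9b at 100% identity over 1040 bases, the whole of the shorter, and Gm9780 is a further copy, with 100% identity to Plac9a over 1394 bases. The RefSeq models that were counted are not these transcripts. The authors' lengths were 484 bases for Plac9a and 1020 bases for Plac9b, so part of the Plac9b model lies outside that of Plac9a. Expected counts divide reads that fit both copies by estimation, so each copy alone is uncertain and the sum of Plac9a and Plac9b is the firmer value. Gm9780 is not among the listed genes, so the sum leaves it out. Myh6 and Myh7, the neighbouring gene of the beta heavy chain, matched at 91.79% over 5810 bases.

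Ccnb1ip1, Myh6 and Opn4 were close to absent in V libraries and low but counted in every r1r2V library. Ccnb1ip1 had 36, 45 and 61 expected counts in r1r2V libraries, against 2, 5 and 1 in V libraries, or 2.74 ± 0.746 CPM (SD, n = 3) against 0.153 ± 0.114 CPM (SD, n = 3). Every r1r2V library lay above every V library. The log2 fold change was 4.07 (16.9-fold, standard error 0.438), and the ratio of summed counts, 142 in r1r2V to 8 in V scaled for depth, was 17.6 with an exact 95% interval of 8.67 to 41.5 that covers counting error only.

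Myh6 had 115, 63.4 and 193 expected counts in r1r2V libraries, against 7.32, 16.8 and 8.35 in V libraries. That was 7.18 ± 3.84 CPM in r1r2V and 0.62 ± 0.298 CPM in V (SD, n = 3 each), a log2 fold change of 3.51 (standard error 0.474). The groups did not overlap, but the r1r2V libraries spread 3.11-fold among themselves, the widest of the 7 genes, with replicate 4 lowest and replicate 5 highest. Fractional counts show that some of its reads were divided with another gene. Myh7 itself had 28.4, 25.2 and 41.7 CPM in r1r2V libraries and 31.4, 38.2 and 40.1 CPM in V libraries, and did not pass (log2 fold change -0.20, adjusted p = 0.774 by edgeR's quasi-likelihood test). Per transcript length, Myh6 made up 19.1%, 12.7% and 21.4% of the summed FPKM of both genes in r1r2V libraries, against 1.32%, 2.42% and 1.32% in V libraries.

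Opn4 had 30, 11 and 25 expected counts in r1r2V libraries, against 3, 1 and 1 in V libraries. Its level was 1.28 ± 0.576 CPM in r1r2V and 0.0964 ± 0.0633 CPM in V (SD, n = 3 each). The summed counts, 66 in r1r2V and 5 in V, gave a ratio of 13.1 with an exact 95% interval of 5.32 to 41.5, for counting error only, and the log2 fold change was 3.61 (standard error 0.609). Replicate 4 was again the lowest r1r2V library, yet stood above all V libraries. Opn4 has 2 RefSeq transcripts, and the authors' length for it, which follows their mix, was 2172.93, 2180.49 and 2174.33 bases in r1r2V libraries. In V libraries it was 2259, 2156 and 2259 bases, each from at most 3 counts, so no change of transcript can be read from it. The lengths of the other 6 genes were the same in all libraries.

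Even in r1r2V these transcripts were rare. Ccnb1ip1 averaged 1.94 ± 0.516 FPKM, Myh6 1.21 ± 0.638 FPKM and Opn4 0.617 ± 0.284 FPKM in r1r2V (SD, n = 3 each). Across r1r2V libraries Ccnb1ip1 stood at the 25.9 to 31.9 percentile of listed genes by FPKM, and Opn4 at the 13.2 to 20.6 percentile. In V libraries the highest percentile of the 3 genes was 10.6, of Ccnb1ip1 in replicate 3. The RNA is from whole punches, so more cells with a transcript and more RNA per cell cannot be told apart.

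**Figure D1:**
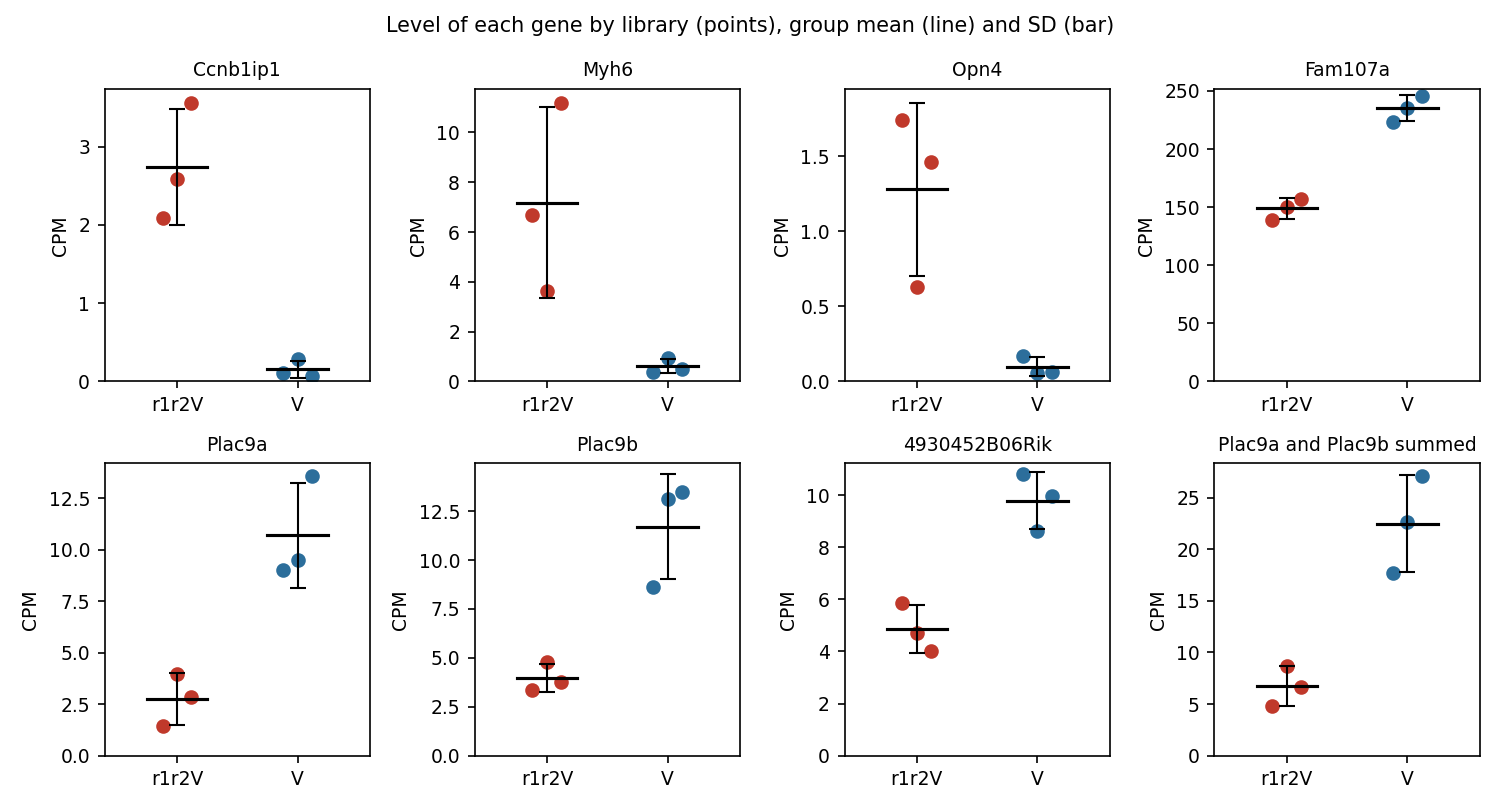
CPM (linear axes) of each of the 7 genes and of the summed Plac9 copies in each r1r2V library (red, left) and V library (blue, right), with the group mean and SD. Ccnb1ip1, Myh6 and Opn4 lie near 0 in V, and Fam107a, the Plac9 copies and 4930452B06Rik are lower in r1r2V without overlap.

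Fam107a was the one abundant gene of the 7 and the steadiest. It had 139, 150 and 157 CPM in r1r2V libraries, against 223, 235 and 246 CPM in V libraries. With 149 ± 8.96 CPM in r1r2V and 235 ± 11.3 CPM in V (SD, n = 3 each), it stood at 63.4% of its V level, and its libraries spread 1.13-fold within r1r2V. Per length it had 48.7 ± 2.44 FPKM in r1r2V and 77.2 ± 3.89 FPKM in V (SD, n = 3 each), at the 88.3 to 89.2 percentile of listed genes in r1r2V libraries, against 92.6 to 93.5 in V libraries. The log2 fold change was -0.66 (standard error 0.069).

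Next to Fam107a, 4930452B06Rik had 5.86, 4.71 and 4.02 CPM in r1r2V libraries, against 10.8, 8.62 and 9.96 CPM in V libraries. Its mean of 4.86 ± 0.929 CPM in r1r2V was 49.7% of the 9.79 ± 1.09 CPM in V (SD, n = 3 each), a log2 fold change of -1.01 (standard error 0.167). The highest r1r2V library remained below the lowest V library.

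Plac9a and Plac9b together had 83, 152 and 114 expected counts in r1r2V libraries, against 313, 402 and 427 in V libraries. Summed, they came to 6.73 ± 1.96 CPM in r1r2V and 22.5 ± 4.72 CPM in V (SD, n = 3 each), or 30% of the V level, with a log2 fold change of -1.73 (standard error 0.21). The log2 fold changes of the single copies were -1.95 for Plac9a and -1.56 for Plac9b. Plac9a varied 2.73-fold among r1r2V libraries (1.45, 3.96 and 2.86 CPM) and Plac9b 1.42-fold (3.37, 4.77 and 3.79 CPM), and for both copies replicate 4 was the r1r2V library nearest to V.

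The choice of the genes turned on an adjusted p under 0.05 (edgeR's quasi-likelihood test, Benjamini-Hochberg adjustment over 14438 genes), which 0.416% of all tested genes met, 0.298% as higher and 0.118% as lower in r1r2V. The CPM of the groups did not overlap for any of the 7, with 3 higher and 4 lower in r1r2V, and of all tested genes 6.87% were higher and 7.63% lower without overlap. Those shares are given as background only, since this contrast chose the genes. All 7 genes passed the filter on low counts, but Ccnb1ip1, Myh6 and Opn4 only through r1r2V, where they are high. Just inside the threshold were 4930452B06Rik (adjusted p = 0.0356) and Opn4 (0.034). Just outside, past the multi-copy region, lay Nr1d2 (0.0553), with 242 ± 28.6 CPM in r1r2V and 175 ± 6.01 CPM in V, and Gfra2 (0.0865), with 46 ± 6.26 CPM in r1r2V and 64.6 ± 2.24 CPM in V (SD, n = 3 each).

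On chromosome 14, 28 of 515 tested genes passed (5.44%), against 32 of 13923 tested genes that are not on it (0.23%). Of the 28, 16 of 18 tested genes that start before 7.6 Mb passed, the region of the multi-copy family. Past that point 12 of 497 passed, the 7 genes and 5 others. Of the other 5, 4 are named here, after their values were seen. Fhit, Olfr31 and Hr were higher in r1r2V (log2 fold changes 1.18, 4.10 and 0.81, adjusted p = 0.00702, 0.0208 and 0.0359 by edgeR), and Samd4 was lower (-0.49, adjusted p = 0.0103). Olfr31, an odorant receptor gene, was like Ccnb1ip1 nearly absent in V, with 1.12 ± 0.415 CPM in r1r2V and 0.0564 ± 0.0563 CPM in V (SD, n = 3 each). Without any 1 V library, the count on the chromosome was 11 to 13 higher and 3 or 4 lower, against 21 and 7 with all libraries, and without r1r2V replicate 4 the lower count was 12.

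**Figure D2:**
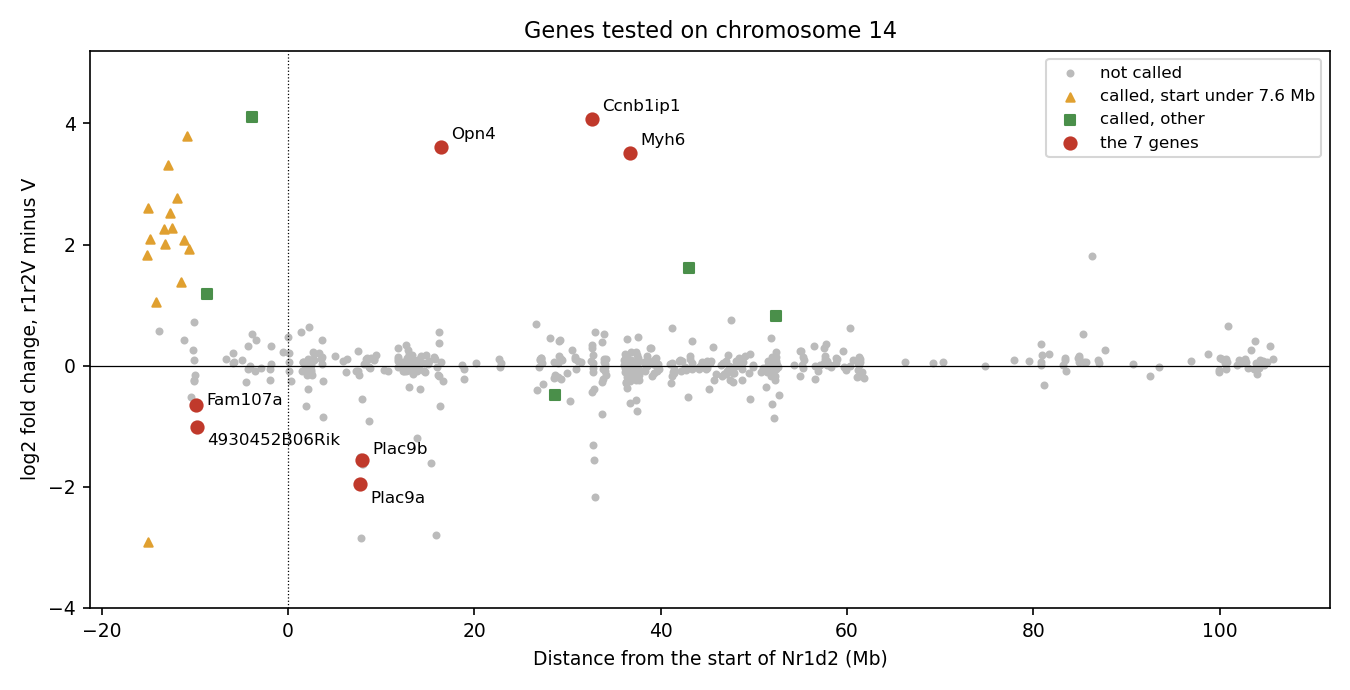
Log2 fold change (r1r2V minus V) of each tested gene on chromosome 14 against the distance of its start from that of Nr1d2 in Mb. The 7 genes (red) lie from 9.91 Mb before to 36.7 Mb past Nr1d2, among many genes near 0, and Gm3317, a gene of the multi-copy region that is not listed in r1r2V libraries, is off the scale.

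Tested genes other than the 7 were also compared by distance from Nr1d2, in classes that were set after values were seen. Leaving out the 7 genes and all starts under 7.6 Mb, an unadjusted p under 0.05 was reached by 18 of 83 genes within 10 Mb of Nr1d2 (21.7%), 11 of 72 at 10 to 20 Mb (15.3%) and 24 of 139 at 20 to 40 Mb (17.3%). Beyond 40 Mb it was reached by 15 of 196 (7.65%), close to the 1002 of 13923 genes off the chromosome (7.2%) and to the 7.58% of all tested genes. Over the whole 40 Mb the share was 18% (53 of 294). Nr1d2 itself (unadjusted p = 0.000237 by edgeR) is counted among the 18 of 83, as are Duxbl2 and Duxbl3, which have the same values. By coordinate the share did not fall evenly. With the 7 genes left in, it was 12.7% at 30 to 40 Mb of the chromosome, 17.5% at 50 to 60 Mb, 6.25% at 60 to 70 Mb and 12.7% at 70 to 80 Mb. These are shares of single-gene tests in the same 6 libraries and neighbouring genes are not independent, so no test is given of the difference. The share within 40 Mb was 13.1% to 22.7% when single libraries were left out, and above the share off the chromosome in each of those fits. After adjustment 2, 0, 1 and 2 genes of the 4 distance classes passed.

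**Figure D3:**
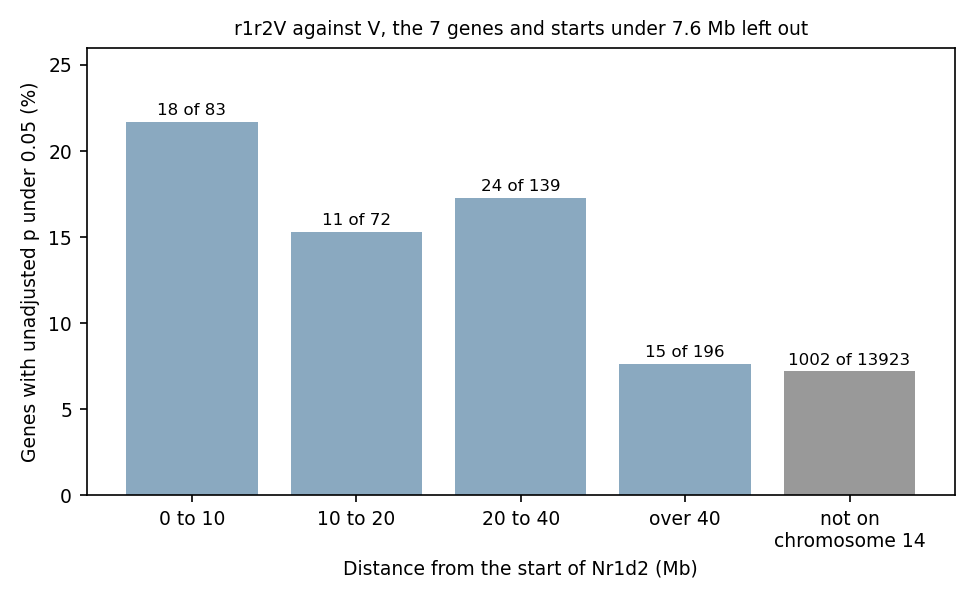
Share (%) of tested genes with an unadjusted p under 0.05 by distance from the start of Nr1d2 in Mb, with counts above the bars and genes not on chromosome 14 at the right. Bars up to 40 Mb stand at 15.3% to 21.7%, the others at 7.65% and 7.2%. The distance classes were set after values were seen, and Nr1d2 itself is counted in the first bar.

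Genes right beside the 7 were looked at as well. Within 1 Mb of any of the 7 genes 107 others were tested, of which 2 passed as higher and 0 as lower (edgeR). That was 1.87%, against 0.416% of all tested genes. An unadjusted p under 0.05 was reached by 29 of the 107 (27.1%), against 7.58% of all tested genes. By gene that share ran from 12.3% of the neighbours of Myh6 to 66.7% of those of Fam107a, with 38.5% for Ccnb1ip1 and 45.5% for Opn4. Both that passed, Gm5797 and Gm3558, belong to the region under 7.6 Mb and lie 972.3 and 751.1 kb before Fam107a (log2 fold changes 3.79 and 1.93). DESeq2 called 6 of the 107 as lower, among them Tmem254a, Tmem254c, Pnp2, Ang and Rnase6. All r1r2V libraries lay below all V libraries for 27 of the 107 (25.2%), which was so for 7.63% of all tested genes. They lay above all V libraries for 12 of the 107, which was so for 6.87% of all tested genes. The median log2 fold change of the 107 was -0.04, against 0.01 for all genes.

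Around Ccnb1ip1 the nearest tested genes did not pass, and Parp2, the nearest past it, was higher in r1r2V without overlap. Ttc5, which starts 23.8 kb before it, had 39.4 ± 1.68 CPM in r1r2V and 37.5 ± 1.24 CPM in V, and Parp2, a DNA repair gene 18.6 kb past it, 19.9 ± 0.8 CPM in r1r2V and 15.8 ± 1.34 CPM in V (SD, n = 3 each; log2 fold changes 0.07 and 0.33, adjusted p = 0.804 and 0.345). A little further on, no ribonuclease or nucleoside phosphorylase gene passed in edgeR, but Pnp2, Ang, Rnase4 and Rnase6 were lower in r1r2V without overlap. DESeq2 called Pnp2, Ang and Rnase6 lower. Rnase4 had 22.1 ± 2.98 CPM in r1r2V and 28.8 ± 1.85 CPM in V (SD, n = 3 each; adjusted p = 0.345). Rnase1 had 2.32, 2.3 and 4.2 CPM in r1r2V libraries, against 2.31, 1.86 and 1.84 CPM in V libraries, so its groups overlapped (adjusted p = 0.67). Pnp was level at 0.04 on the log2 scale (adjusted p = 0.913). Ang had 0.928, 1.26 and 0.583 CPM in r1r2V libraries, against 2.54, 3.61 and 2.09 CPM in V libraries (adjusted p = 0.109). Rnase6 had 0.348, 1.09 and 0.117 CPM in r1r2V libraries, against 2.82, 1.97 and 2.28 CPM in V libraries (adjusted p = 0.171), and Pnp2 1.66 ± 0.709 CPM in r1r2V and 4.13 ± 0.781 CPM in V (SD, n = 3 each; adjusted p = 0.151). The 13 neighbours of Ccnb1ip1 ranged from -2.16 to 0.55 on the log2 scale.

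Beside Opn4, Ldb3, a gene of a muscle Z-disc protein 63.9 kb before it, had 7.79 ± 1.86 CPM in r1r2V and 12.4 ± 1.16 CPM in V (SD, n = 3 each; adjusted p = 0.244). Wapl, a cohesin release factor gene 81.8 kb past it, was level at 0.05 on the log2 scale (adjusted p = 0.881). Anxa8, an annexin gene 504.6 kb before it, had 0, 2.59 and 0.816 CPM in r1r2V libraries, against 7.67, 7.94 and 8.25 CPM in V libraries, and did not pass (adjusted p = 0.123). Replicate 4 was the r1r2V library nearest to V. Around Myh6, 57 neighbours had log2 fold changes from -0.75 to 0.47 and none passed, with Cmtm5 on its one side at 0.08 and Myh7 on the other at -0.20 (7 had an unadjusted p under 0.05).

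The Plac9 copies lie in a repeated block with copies of Tmem254, a membrane protein gene, and Duxbl, a double homeobox gene. Tmem254a, the neighbour past Plac9a, had 1.1, 4.02 and 0.991 CPM in r1r2V libraries, against 5.92, 5.75 and 5.77 CPM in V libraries (log2 fold change -1.51, adjusted p = 0.34). The 3 Tmem254 copies summed came to 18.1, 36.4 and 22.5 CPM in r1r2V libraries, against 45.8, 52.5 and 71.5 CPM in V libraries, so those groups did not overlap either, and replicate 4 was again nearest to V. Single copies moved freely between libraries of one group: Tmem254b had 31.7, 5.63 and 55.3 CPM in V libraries. Duxbl2, before Plac9b, and Duxbl3 were listed with the same values, 0.58, 1.03 and 0.35 CPM in r1r2V libraries against 1.41, 1.97 and 2.79 CPM in V libraries (adjusted p = 0.223). Outside the block, Anxa11, 46.3 kb before Plac9a, stood at -0.15 on the log2 scale (adjusted p = 0.763).

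On the Fam107a side the nearest tested gene, Kctd6, which starts 82.2 kb before it, stood at -0.15 on the log2 scale (adjusted p = 0.683). Within 1 Mb past it, 4930452B06Rik was the only tested gene. Pdhb, a subunit gene of pyruvate dehydrogenase 130.3 kb before Fam107a, had 146 ± 11.1 CPM in r1r2V and 174 ± 3.14 CPM in V (SD, n = 3 each; adjusted p = 0.345). At Nr1d2 itself, 5 neighbours were tested and none passed (3 had an unadjusted p under 0.05). Thrb, a thyroid hormone receptor gene, and Rpl15, a ribosomal protein gene, flank it with log2 fold changes of 0.22 and 0.21 (adjusted p = 0.653 and 0.528). Of 10 genes listed for the Nr1d2 region, Nr1d2 among them, 0 passed in either direction (edgeR; 4 had an unadjusted p under 0.05), with a median of 0.04.

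**Figure D4:**
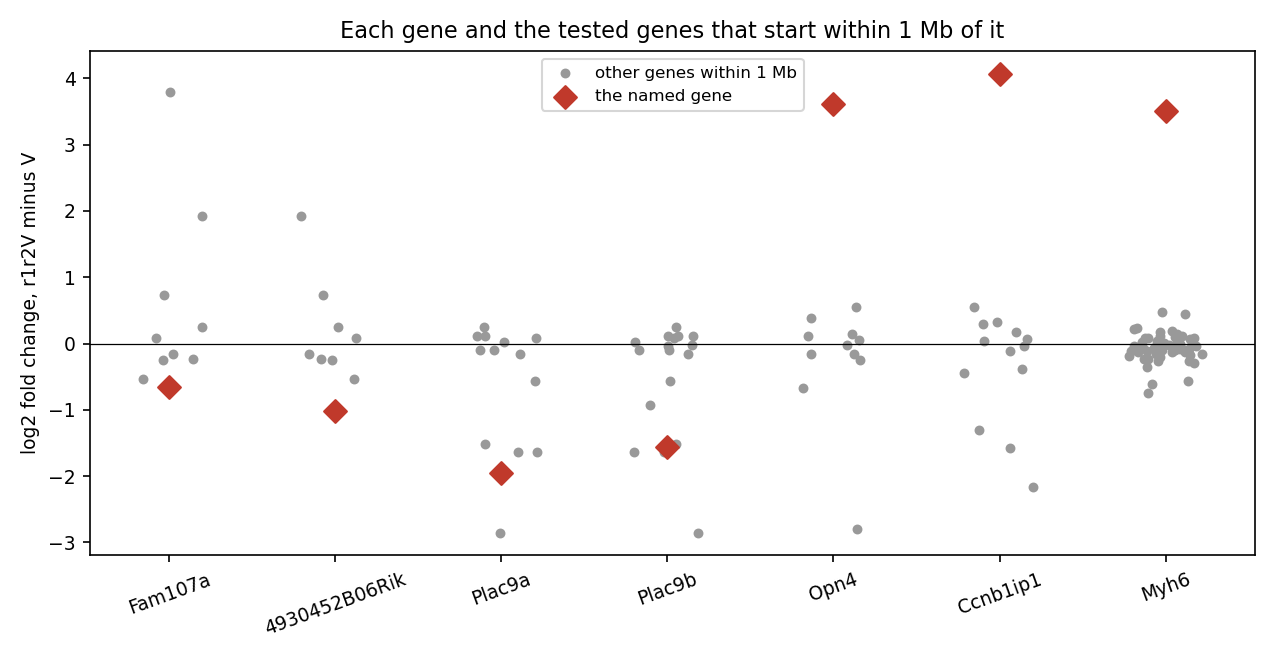
Log2 fold change (r1r2V minus V) of each of the 7 genes (red diamonds) and of the tested genes that start within 1 Mb of it (grey points). Opn4, Ccnb1ip1 and Myh6 stand at 3.51 to 4.07 above neighbours at 0.55 or less, while the Plac9 copies lie among other low genes.

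The genes that work with Ccnb1ip1, Myh6, Opn4 and Fam107a were also measured, from lists that had been drawn up by function. Of 7 other tested genes of meiotic crossing over, 0 passed in either direction (edgeR; 0 had an unadjusted p under 0.05), with a median log2 fold change of 0.04. Mlh3, a DNA mismatch repair gene active in many tissues, was the most abundant, at 28.3 ± 2.72 CPM in r1r2V and 27 ± 1.5 CPM in V (SD, n = 3 each). Hfm1, a helicase gene of meiosis, had 3.89, 4.94 and 3.91 CPM in r1r2V libraries, against 4.01, 5.52 and 4.44 CPM in V libraries. Sycp3, a gene of the synaptonemal complex, had 2.26, 2.76 and 3.03 CPM in r1r2V libraries, against 3.67, 1.35 and 2.16 CPM in V libraries. Others of the list were lower still in both groups, and Msh4, a crossover factor gene, had at most 0.058 CPM in r1r2V libraries and no counts listed in V libraries.

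Of 11 other tested genes of the cardiac sarcomere list, which also holds heart genes outside the sarcomere, 0 passed (1 had an unadjusted p under 0.05), and the median was -0.19. The most abundant were Ryr2, the calcium release channel gene that brain also expresses, with 89.4 ± 14.1 CPM in r1r2V and 77.2 ± 3.24 CPM in V (SD, n = 3 each; adjusted p = 0.666), and Myh7. Several sarcomere genes were counted at a few CPM in both groups. Tnnt2, the cardiac troponin T gene, had 5.57, 4.42 and 4.2 CPM in r1r2V libraries, against 7.05, 5.18 and 7.3 CPM in V libraries (adjusted p = 0.601). Tnnc1, the troponin C gene of heart and slow muscle, had 5.57, 5.11 and 5.07 CPM in r1r2V libraries, against 4.97, 4.23 and 4.57 CPM in V libraries (adjusted p = 0.758). The 6 listed genes that could not be tested, among them Myl2 and Actc1, were at 0.522 CPM or less in r1r2V libraries and at 0.845 CPM or less in V libraries. The 17 listed genes of this list other than Myh6 summed to 130 to 168 CPM in r1r2V and 143 to 156 CPM in V.

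Melanopsin signals through Gq proteins, phospholipase C and TRPC channels. Of 11 other tested genes of the melanopsin list, which reaches beyond that route, 0 passed (0 had an unadjusted p under 0.05), with a median of 0.03. Arrb1, an arrestin gene, had 247 ± 21.9 CPM in r1r2V and 235 ± 7.54 CPM in V, and Gnaq, a Gq subunit gene, 210 ± 10 CPM in r1r2V and 206 ± 8.45 CPM in V (SD, n = 3 each; adjusted p = 0.805 and 0.93). Markers of photoreceptors and retina summed to 3.03 to 5.05 CPM in r1r2V and 3.95 to 4.5 CPM in V over 13 listed genes, of which 3 could be tested and 0 passed. Gnat1, the rod transducin gene, had no counts listed in 2 of 3 r1r2V libraries and in 3 of 3 V libraries.

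Of 17 other glucocorticoid-induced genes, 0 passed (edgeR; 9 had an unadjusted p under 0.05, which 7.58% of all tested genes had), with a median of 0.13 and a range of -0.57 to 0.75. The 9 went both ways, 6 higher and 3 lower in r1r2V. Cdkn1a, a cell cycle inhibitor gene, had 18.9, 15.8 and 17.8 CPM in r1r2V libraries, against 11.6, 12.1 and 12.4 CPM in V libraries (adjusted p = 0.0714), and was called higher by DESeq2 and without r1r2V replicate 4. Arl4d, a small GTPase gene, had 8.65, 8.44 and 9.15 CPM in r1r2V libraries, against 9.87, 14.4 and 14.7 CPM in V libraries (adjusted p = 0.345). Tsc22d3, a glucocorticoid-induced leucine zipper gene, had 167 ± 6.97 CPM in r1r2V and 161 ± 16.5 CPM in V, and Mt2, a metallothionein gene, 108 ± 11.1 CPM in r1r2V and 98 ± 11.6 CPM in V (SD, n = 3 each; adjusted p = 0.885 and 0.754). Fam107a is also found in astrocytes, and of 16 astrocyte markers 0 passed (1 had an unadjusted p under 0.05), with a median of 0. They summed to 5510 to 6430 CPM in r1r2V and 5640 to 6130 CPM in V, the most abundant being Aldoc and Slc1a2 (log2 fold changes -0.07 and -0.12). Of 12 genes listed for meningeal fibroblasts, 0 passed (2 had an unadjusted p under 0.05, Slc6a13 and Pdgfra, both higher in r1r2V). Slc6a13 had 4.47, 6.61 and 8.8 CPM in r1r2V libraries, against 3.33, 3.61 and 3.49 CPM in V libraries (adjusted p = 0.257 by edgeR). Their median was 0.32 and their sum 198 to 372 CPM in r1r2V and 208 to 242 CPM in V, with Pdgfra and Igf2 most abundant (0.20 and 0.24).

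**Figure D5:**
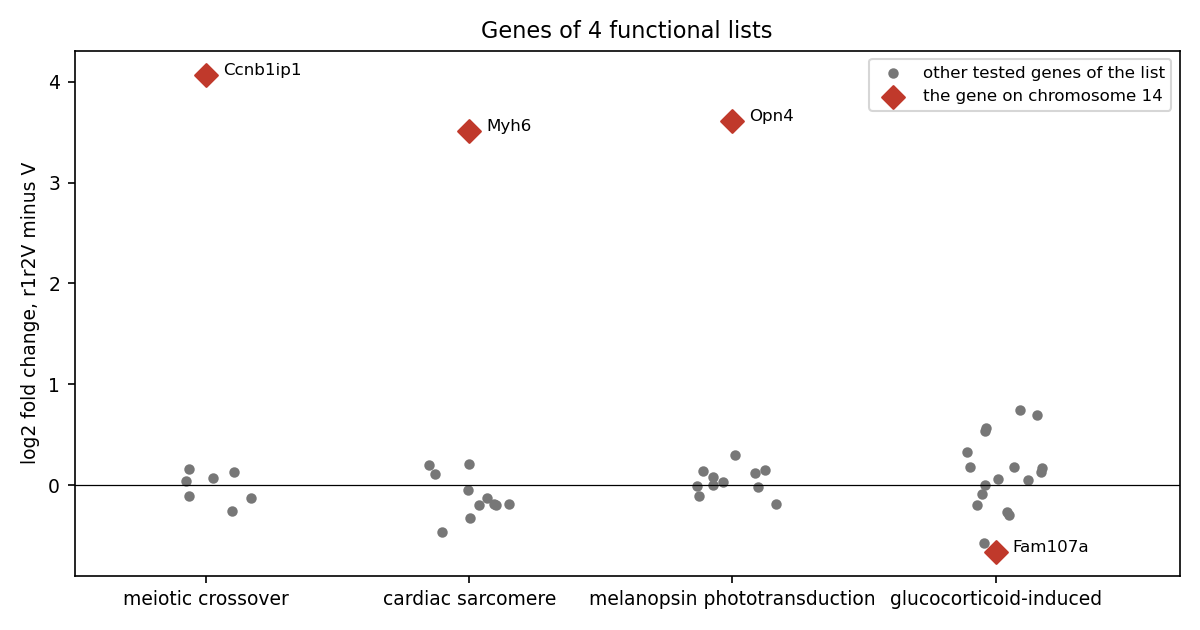
Log2 fold change (r1r2V minus V) of the tested genes of 4 functional lists (grey points) and of the gene on chromosome 14 that each list contains (red diamonds). The other members lie between -0.57 and 0.75, with Ccnb1ip1, Myh6 and Opn4 at 3.51 to 4.07 and Fam107a at -0.66.

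The libraries carried the markers of the tissue they are labelled with. Total expected counts were 17040698 to 17566335 in r1r2V and 15729603 to 17780928 in V libraries. All 16 SCN and GABA neuron markers were counted in every library, with a summed level of 1740 to 1970 CPM in r1r2V and 1840 to 1940 CPM in V. Of the 16, 0 passed in edgeR (5 had an unadjusted p under 0.05). Rgs16, a gene of G protein signalling, had 116, 114 and 71.8 CPM in r1r2V libraries, against 57.5, 53.7 and 56.1 CPM in V libraries (adjusted p = 0.0588), and was called higher by DESeq2, with no filter and without r1r2V replicate 5. Gad2 and Gad1, the GABA synthesis genes, were the most abundant, with 634 ± 87.6 and 461 ± 47.2 CPM in r1r2V against 618 ± 53.4 and 474 ± 20.3 CPM in V (SD, n = 3 each). They weigh most on the sum, and some single markers varied far more. Vip had 50.5, 72 and 11.4 CPM in r1r2V replicates 1, 4 and 5, against 85.8, 53 and 51.8 CPM in V libraries. In the same order Prok2 had 12.1, 20.5 and 1.75 CPM against 7.67, 2.99 and 3.62 CPM. Avp had 160, 190 and 384 CPM against 247, 259 and 360 CPM. The level sum therefore does not show that all punches held the same share of SCN.

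By a fixed rule, genes with the most similar pattern over the 6 libraries were sought for each gene with a mean of at least 1 CPM, by the Euclidean distance between centred log2(CPM + 1) values. Since the groups differ in all of them, the pattern is mainly that difference. Ccnb1ip1 was nearest to Fam227b of chromosome 2 (distance 0.57) and Gm2897 of chromosome 14 (0.61), and Myh6 to Ccnb1ip1 (1.09) and Fam227b (1.15). Fam107a was nearest to Dglucy of chromosome 12 (0.12) and Sfrp5 of chromosome 19 (0.14). Plac9a was nearest to Bub1b of chromosome 2 (0.61) and Padi2 of chromosome 4 (0.73), and Plac9b to Bub1b (0.66) and Duxbl2 of its own block (0.67). 4930452B06Rik was nearest to Ccdc3 of chromosome 2 (0.32) and Galnt15 of chromosome 14 (0.41).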

How the data were processed

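RNA-seq gene tables of 3 r1r2V and 3 V libraries of SCN punches were used. Per the file headers, the authors deposited an expected count, an FPKM and a length per gene, and 9.88% of expected counts were not whole (tolerance 0.005). RSEM 1.2.12 and Bowtie2 2.2.5 are named per the submitters' processing notes, which also list DESeq2, GATK, HISAT2 2.0.4, Cufflinks 2.2.1, StringTie 1.0.4 and build mm10. The sources used here give no roles, filters or use of strand. FPKM is the authors' scaling by length and library, per the file headers, and unlisted genes were set to 0.

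Expected counts were rounded, filtered with edgeR's filterByExpr (minimum count 10), scaled by trimmed mean of M-values and tested by edgeR 4.0.16 (quasi-likelihood, R 4.3.3, Benjamini-Hochberg over 14438 genes, threshold 0.05). CPM uses scaled library sizes. The fit was tested on simulated data. Ratios of summed counts carry exact binomial intervals (95%). Positions are RefSeq's (GRCm38.p6, 17622 genes placed by gene ID). Overlaps and strands are GENCODE's, and copies were found with BLAST+ 2.17.0. Members and lists were chosen with earlier results of these data known, and the limit of 7.6 Mb and the distance classes after values were seen. Named genes are the 7, Nr1d1 and Nr1d2, called neighbours within 1 Mb and the closest on each side, called list genes or else the 2 most abundant, and the 2 nearest patterns. Others were named after their values were seen. Some genes that this rule names are not reported here. Alternatives were DESeq2 1.42.0, limma 3.58.1 (voom, and log2(FPKM + 1) or log2(FPKM + 0.1)), other scaling, filters and windows, and leaving out each library.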

Additional observations from a re-analysis of the deposited data

How the results depend on the processing

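No paired analysis was made, because the labels give no pairing of libraries. Just 1 replicate number, 4, occurs in both groups, and nothing says that it marks a pair. The adjusted p of the 7 genes, by which they were chosen, depended on the libraries. It stayed under 0.05 for 3, 3 and 2 of them when V replicate 2, 3 or 4 was left out, and for 6, 6 and 5 when r1r2V replicate 1, 4 or 5 was. It did so for 5 on log2(FPKM + 1), 6 with limma-voom, 6 of 6 tested with a filter of 1 CPM and 7 with DESeq2, with other scaling, with no filter and on log2(FPKM + 0.1). Their signs cannot serve as a check, since the genes were chosen for groups that differ. On log2(FPKM + 1) the log2 fold changes were 1.39 for Ccnb1ip1, 0.96 for Myh6, 0.61 for Opn4 and -0.73 for 4930452B06Rik, and on log2(FPKM + 0.1) they were 3.32, 2.57 and 2.21 for the first 3, since a pseudocount understates changes of low genes. Without 1 library they ran from 3.75 to 4.83 for Ccnb1ip1, 3.02 to 3.98 for Myh6, 3.32 to 4.26 for Opn4, -0.70 to -0.61 for Fam107a, -2.31 to -1.65 for Plac9a, -1.74 to -1.45 for Plac9b, -1.97 to -1.54 for their sum and -1.16 to -0.89 for 4930452B06Rik.

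Over all genes 43 were called higher and 17 lower, with DESeq2 69 and 40, and without 1 library 19 to 52 and 7 to 24. Leaving out a V library gave the low counts, namely 20 and 7 (replicate 2), 20 and 8 (replicate 3) or 19 and 7 (replicate 4). On chromosome 14 the counts were 11 to 21 higher and 3 to 12 lower without 1 library, and DESeq2 called 17 lower. Neighbours within 1 Mb of the 7 genes were called 2 higher and 0 lower. They were 1 to 2 and 0 to 5 without 1 library, with 5 lower without r1r2V replicate 4. DESeq2 called 6 lower, and 1 was lower both without a filter and on log2(FPKM + 1). A window of 0.5 Mb held 0 called higher and one of 2 Mb held 5, Fhit among them. The list of the Nr1d2 region had 1 gene called higher with no filter, with DESeq2 and without r1r2V replicate 4 or 5. That list holds Nr1d2 itself, its gene closest to the threshold in the main fit (adjusted p = 0.0553 by edgeR), so the call need not be of a neighbour. The fibroblast list had 1 gene called higher without r1r2V replicate 1. Shares of genes with an unadjusted p under 0.05, an alternative set chosen after seeing the data, ran without 1 library from 13.1% to 22.7% within 40 Mb of Nr1d2, 4.02% to 15.1% beyond 40 Mb and 3.86% to 13.3% off the chromosome. The highest of each was without r1r2V replicate 1. No cause of these differences was tested. Counts of 1 to 5 in V libraries limit the ratios of Ccnb1ip1 and Opn4.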

Other observations

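Among r1r2V libraries, replicate 4 often lay nearest to V on chromosome 14, a pattern noticed after the values were seen and given with no test. The r1r2V library whose log2(CPM + 0.1) was nearest to the V mean was counted for each gene with an unadjusted p under 0.05. Of 53 such genes within 40 Mb of Nr1d2, the 7 genes and starts under 7.6 Mb left out, it was replicate 4 for 28 (52.8%), replicate 1 for 15 and replicate 5 for 10. Of 1002 such genes not on chromosome 14 it was replicate 4 for 213 (21.3%), replicate 1 for 396 and replicate 5 for 393. Of 15 beyond 40 Mb on the chromosome it was replicate 4 for 6 (40%). For the 7 genes themselves it was replicate 4 for 4, Plac9a, Plac9b, Myh6 and Opn4. Anxa8 and Rnase6 are examples already counted among the 28 genes within 40 Mb. Anxa8 had 0, 2.59 and 0.816 CPM in r1r2V replicates 1, 4 and 5, against 7.67 to 8.25 CPM in V. Rnase6 had 0.348, 1.09 and 0.117 CPM in the same r1r2V libraries, against 1.97 to 2.82 CPM in V. The 28 also hold Tmem254a, Tmem254c, Duxbl2 and Duxbl3 of a single repeated block, and neighbouring genes are not independent.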
